A study of Mus musculus with 2 samples.

Results

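B cells that carried neither Ighd nor Fcer2a transcripts were described in single cells from lymph nodes of C57BL/6 mice. Ighd encodes the heavy chain of IgD and Fcer2a encodes CD23, both of which are made by mature follicular B cells. The study held 1 library from wild-type mice (WT) and 1 from mice with a conditional knockout (CKO) of Rpa1, which encodes the large subunit of replication protein A, the complex that coats single-stranded DNA. The labels do not say which cells or exons the deletion covers, how many mice or nodes were pooled, or their age. With 1 library per genotype there is no replicate, so no difference between WT and CKO could be tested, and every interval below covers counting error only at the 95% level.

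Members were chosen on unique molecular identifiers (UMIs, each standing for 1 captured transcript). A cell needed at least 2000 UMIs and 200 genes, at most 10% mitochondrial UMIs, at least 2 Cd79a UMIs, and none of Ighd, Fcer2a, Cd3d, Cd3e or Cd3g. It also had under 2 UMIs summed over the activation genes Egr3, Bcar3 and Myo1e, and under 10 of Jchain, which marks plasma cells. This left 90 cells of 6771 B cells that met every condition but the pair of absent genes, of 25367 cells past the depth limits and 26523 barcodes in all. WT gave 17 members and CKO gave 73. Levels are given as CPM, the UMIs of a gene per 1000000 UMIs of the group. The genes that chose the members are not results here, and the comparison of members with follicular B cells is a description, since the rule split those cells.

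B cells mature from bone marrow precursors that cut and join their immunoglobulin genes with the RAG enzymes, leave as IgM-positive immature cells, and then gain IgD and CD23 as follicular cells. B cells can lack the pair of markers for several reasons. Immature cells have not gained them, germinal centre and class-switched cells have lost them, and innate-like B1 cells hold little of either. B1 cells express the transcription factors Bhlhe41 and Zbtb32, and germinal centre cells express Mef2b and S1pr2. Class II molecules of the major histocompatibility complex, which present peptides to T cells, are acquired as B cells mature.

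The libraries held 12769 (WT) and 13754 (CKO) barcodes, and 56 barcode sequences occurred in both, none of them from a member. Members had a median of 3646 UMIs in WT (2258 to 15739) and 3895 in CKO (2030 to 14834), close to the medians of follicular B cells, 3863 and 3796.5. Follicular cells here are the B cells with at least 1 UMI of each absent gene, 1461 in WT and 3988 in CKO. The 5 deepest WT members held 55.3% of the 85628 UMIs of that group, against 15.7% of 334308 in CKO, so the WT levels rest on few cells. No WT member and 2 CKO members were among the cells with the highest Scrublet doublet scores, and none was removed. As a measure of free RNA in cells that should lack a B cell gene, T cells held Ighm at 252 CPM in WT and 216 in CKO. Rpa1 (chromosome 11, 75298166 to 75348324, GRCm38) stood at 46.7 CPM in WT members (4 UMIs) and 32.9 in CKO members (11 UMIs), a ratio of 0.704 (0.209 to 3.03), and at 39.1 and 37.2 in follicular cells. Reads from 3′ ends may lie outside the deleted exons, so this level checks no label.

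Members made up 0.948% of the B cells in WT (0.553 to 1.51%, exact binomial) and 1.47% in CKO (1.15 to 1.84%). The difference was 0.518 percentage points, with a Newcombe interval from -0.121 to 1.03 that spans 0. The absence of 2 transcripts depends on depth, so each B cell was also thinned to 2000 UMIs. At that depth 71 WT cells (3.96%) and 247 CKO cells (4.96%) lacked both, a difference of 1.0 points (-0.153 to 2.03). The share did not run one way with genotype across depths. Between 2000 and 3000 UMIs it was 2.76% in WT (6 of 217) and 1.90% in CKO (13 of 685), and from 6000 UMIs it was 3.97% (5 of 126) and 2.55% (13 of 509). Between 3000 and 4000 UMIs it was 0.639% in WT (5 of 782) and 1.08% in CKO (25 of 2313). Between 4000 and 6000 UMIs it was 0.150% in WT (1 of 668) and 1.5% in CKO (22 of 1471), and there the difference of 1.35 points had an interval above 0 (0.488 to 2.11). Just outside the rule, 24 WT and 128 CKO cells had a single UMI over Ighd and Fcer2a. Those cells held Vpreb3 at 437 and 566 CPM and H2-Aa at 3939.6 and 3515 CPM. Each gene taken alone was absent more often: Ighd was at 0 in 2.23% and 4.10% of the B cells, and Fcer2a in 17.2% and 17.3%.

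**Figure D1:**
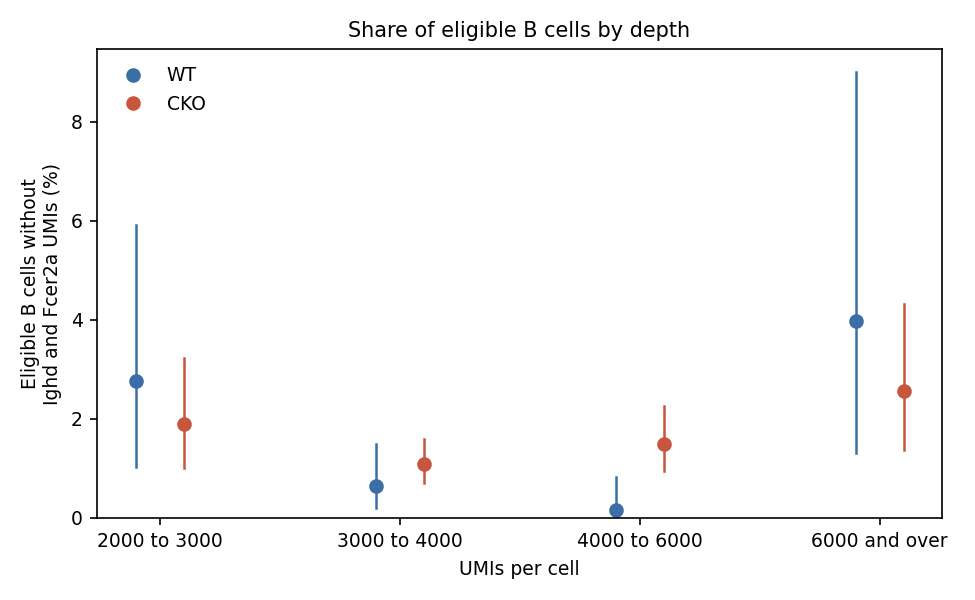
Share of B cells that lacked both Ighd and Fcer2a (percent, y axis) by depth of the cell (UMIs, x axis) in WT and CKO, with exact 95% binomial intervals as bars. The interval of the CKO share lies clear of the WT value of 0.150% between 4000 and 6000 UMIs, while at the lowest and highest depths the WT value is the higher.

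The members carried B cell transcripts beside the Cd79a that chose them. Cd79b, the partner chain of the B cell receptor, had a UMI in 17 of 17 WT and 70 of 73 CKO members, and Ms4a1, which encodes CD20, in 16 and 67. No member lacked all of Cd79b, Ms4a1, Pax5 and Ebf1. Ighm, the heavy chain of IgM, was found in 16 of 17 WT and 71 of 73 CKO members, at 2663 and 4014 CPM. Its CKO to WT ratio of 1.51 (1.31 to 1.74) compares with 1.07 in follicular cells, and over the members of no gate it lay at -0.0537 on the log2 scale. Lambda light chain UMIs outnumbered kappa UMIs in 3 of 17 WT and 13 of 73 CKO members, 17.6% and 17.8%. The Iglc genes are near-identical copies, so counts of single Iglc genes are uncertain.

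The label of innate-like, switched and immature cells was checked with 4 gates, each a sum of UMIs over marker genes. The immature gate took 2 UMIs over Cd93, Rag1, Rag2, Vpreb1, Igll1 and Dntt, and the innate-like gate 2 UMIs over Zbtb32, Bhlhe41, Cd5 and Cd9. The switched gate took 3 UMIs over the Ighg, Igha and Ighe constant genes, and the germinal centre gate 2 UMIs over a set that included Rgs13, S1pr2, Gcsam and Mef2b. A gate is a range of counts and not a cell type. Of the 90 members, 15 passed a gate and 75 passed none (12 of 17 in WT and 63 of 73 in CKO). Of the kinds the label names, 13 members passed an immature, switched or innate-like gate. The label is therefore borne out by the counts for a minority of the members, and the cells are called by their rule below.

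**Figure D2:**
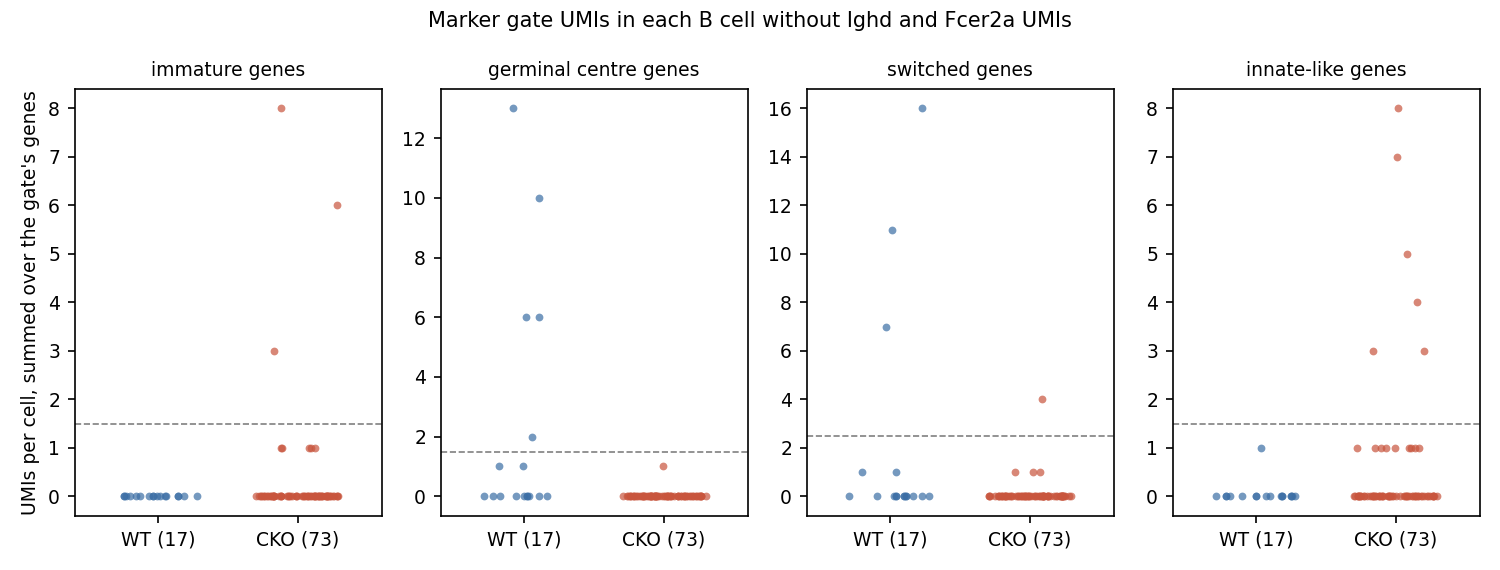
UMIs of each gate's marker genes in every member (y axis, summed UMIs per cell) for WT and CKO, 1 point per cell, with a dashed line just under each gate's threshold. Points above the germinal centre line are WT cells and points above the immature and innate-like lines are CKO cells.

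Germinal centre transcripts were found in WT members. The gate held 5 of 17 WT members (29.4%, 10.3 to 56.0%) and 0 of 73 CKO members, which allows a share of up to 4.11%. The difference was -29.4 points (-53.1 to -12.5). The 5 cells had 15739, 10106, 7958, 7540 and 5527 UMIs and were among the deepest of the WT members. With every member thinned to 2000 UMIs, 1 of 17 WT members passed and the difference was -5.88 points (-27.0 to 1.07), an interval that spans 0. The gate held 0.342% and 0.150% of follicular cells and 0.135% and 0.0850% of T cells, whose median depths of 6379.5 and 5824 UMIs were higher. In WT, 2 members stood 1 UMI under the threshold and 1 exactly at it, and 1 CKO member stood 1 UMI under.

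The individual genes were spread over these cells. Mef2b, a transcription factor of germinal centre B cells on chromosome 8 (70139711 to 70167488, GRCm38), had 3, 3, 0, 3 and 2 UMIs in the 5 cells. S1pr2, a receptor that keeps B cells in the germinal centre, had 3, 3, 1, 0 and 1 UMIs. No member of CKO had a UMI of Rgs13, S1pr2 or Gcsam, against 5, 8 and 8 UMIs in WT members. Mef2b had 13 UMIs in WT members and 1 in CKO members, a ratio of 0.0197 (0.000464 to 0.131). Neil1, a DNA glycosylase, and Basp1, a membrane protein, each had 17 UMIs in WT members and 1 in CKO members. Most germinal centre genes reached the floor of 20 CPM through the WT members alone, so no count over the list is given. These values repeat the make-up of 5 cells.

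Switched immunoglobulin transcripts followed the same cells. The switched gate held 3 of 17 WT members (17.6%, 3.8 to 43.4%) and 1 of 73 CKO members (1.37%), a difference of -16.3 points (-39.7 to -3.35). At 2000 UMIs per cell 1 of 17 and 0 of 73 passed. All 3 WT cells also passed the germinal centre gate, and their median was 6 UMIs of its genes, while the 5 germinal centre gate cells had a median of 7 switched UMIs. Otherwise the median of every other gate's genes was 0 in the cells of each gate, except 1 innate-like UMI in the single CKO cell of the switched gate. Ighg2b, the constant region of IgG2b, had 31 UMIs in 4 WT members (362 CPM) and 0 in CKO members. Against a floor of 3 counts over the CKO group the ratio was at most 0.0248. The CKO cell in this gate held 3 Ighg2c UMIs and 1 of Igha. It also held 1 Ighm UMI, 42 of Plac8 and 84 of interferon-stimulated genes. In follicular cells the gate held 0.274% (WT) and 0.0502% (CKO). In T cells it held 0.0123% in WT and 0 of 3531 cells in CKO, which allows up to 0.0850%.

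Transcripts of RAG-expressing immature cells were found in CKO members. The immature gate held 3 of 73 CKO members (4.11%, 0.856 to 11.5%) and 0 of 17 WT members, which allows up to 17.6%, so the groups could not be told apart at this depth. At 2000 UMIs per cell 2 of the 3 passed. Among the cells just outside the rule it held 0 of 24 in WT and 4 of 128 in CKO (3.13%). The gate held 0.479% and 0.451% of follicular cells and 0.123% and 0.623% of T cells, and 5 CKO members lay 1 UMI under the threshold. Rag1, the DNA-cutting subunit of the RAG recombinase (chromosome 2, 101638282 to 101649501), had 5, 4, 2 and 1 UMIs in 4 CKO members and 0 in WT. That came to 35.9 CPM in CKO (18.5 to 62.7) against 0.179 CPM in follicular cells and 0.223 in T cells. The cells just outside the rule held Rag1 at 24.5 CPM in CKO. The 3 gated cells held Rag1 with 1, 2 and 1 UMIs of Cd93, a surface marker of immature B cells. They held 31, 21 and 8 UMIs of Vpreb3, an assembly factor of the early B cell receptor. Vpreb1 and Igll1, the surrogate light chain genes of earlier precursors, had 0 UMIs in members of both libraries. Sox4 and Myb, transcription factors of early lymphoid cells, had 31 and 26 UMIs in 8 and 6 CKO members and 0 in WT. Against a floor of 3 counts over the WT group they were at least 2.65-fold and 2.22-fold higher in CKO members. Of these UMIs, 4 of Sox4 and 11 of Myb came from CKO cell 7 (cells are numbered by depth within a library), which also held 30 UMIs of the plasmacytoid dendritic cell list. Without the 2 CKO cells led by another type's genes the bounds were 2.40-fold and 1.33-fold, on 27 and 15 UMIs.

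Members held less class II transcript than follicular cells in both libraries. All 9 class II genes lay lower, each with an interval below 1 in each library, with a median log2 ratio of -0.63 in WT and -0.77 in CKO against 0.14 and 0.05 over all genes measured. H2-Aa, the alpha chain of the I-A molecule, stood at 2558 CPM in WT members and 4903 in WT follicular cells, a ratio of 0.522 (0.455 to 0.596). In CKO the levels were 2258 and 4411 CPM, giving 0.512 (0.476 to 0.550), and T cells held 23.7 and 28.4 CPM. Ciita, the coactivator that switches class II genes on, had ratios of 0.396 and 0.528. Cd74, the invariant chain that guides class II molecules, had the mildest ratio in WT, 0.817, and 0.654 in CKO. H2-DMa and H2-DMb2, which load peptides, lay at 0.558 and 0.655 in WT and 0.737 and 0.689 in CKO. In the members of no gate the median was -0.48 in WT, with 8 of 9 genes lower, and -0.72 in CKO, with 9 of 9. There the interval lay below 1 for 3 of the 9 genes in WT and for all 9 in CKO. Per cell, WT members of no gate had a median of 267 class II UMIs per 10000, against 286 in WT follicular cells. In CKO the same medians were 191 and 261. The low WT level is therefore less clear for the WT members of no gate. Of all genes measured, 18.3% in WT and 8.46% in CKO lay at least 1.5-fold lower in members. Between genotypes the class II genes had a median of -0.18 in members and -0.19 in follicular cells.

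The promoters of class II genes carry a CCAAT box among their known elements, and 2 are shown here because the genes lay low together. Each is 250 bases before to 50 after a RefSeq start site in GRCm38.p6, written 5′ to 3′ on the gene's strand. Capitals mark CCAAT or its reverse complement ATTGG. H2-Aa is at chr17:34287774-34288073 on the minus strand and H2-Eb1 at chr17:34305617-34305916 on the plus strand.
H2-Aa: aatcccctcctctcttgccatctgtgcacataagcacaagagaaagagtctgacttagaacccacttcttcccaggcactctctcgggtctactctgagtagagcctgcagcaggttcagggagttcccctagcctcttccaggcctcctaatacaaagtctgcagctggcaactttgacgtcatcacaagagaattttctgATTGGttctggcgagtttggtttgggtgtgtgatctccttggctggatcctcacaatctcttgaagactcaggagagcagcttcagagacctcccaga
H2-Eb1: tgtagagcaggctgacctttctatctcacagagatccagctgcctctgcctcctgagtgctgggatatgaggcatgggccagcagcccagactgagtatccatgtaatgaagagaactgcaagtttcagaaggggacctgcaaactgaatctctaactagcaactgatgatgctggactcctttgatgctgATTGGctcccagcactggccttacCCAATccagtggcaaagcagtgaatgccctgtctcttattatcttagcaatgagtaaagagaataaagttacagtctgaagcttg
The letters occurred in 6 of the 7 start sites found for 6 of the 8 class II genes looked up, and in 12289 of all 32851 promoters of 300 bases (37.4%). A match is a description of the letters and not of binding.

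The low class II level in CKO was uneven between cells. The 9 genes together took 83.5, 235 and 361 UMIs per 10000 in the lowest, median and highest WT member. In CKO members they took 0, 183 and 391, and 3 cells had none. Follicular cells ran from 63.4 over 286 to 553 in WT and from 27.4 over 261 to 643 in CKO. Under 50 per 10000 lay 12 of 73 CKO members (16.4%, 8.79 to 27.0%) and 0 of 17 WT members, whose exact upper limit is 19.5%. The same held for 2 of 3988 CKO and 0 of 1461 WT follicular cells, which allows up to 0.205%. This threshold was chosen after the values were seen. It lies under the lowest WT member, which fixed the WT count at 0, so the members of the 2 libraries are not told apart by it. The 12 cells had 2712 to 9076 UMIs, and 10 of them had a UMI of Ebf1, a transcription factor that sets B cell identity. They included CKO cell 22, with 131 UMIs of the NK cell list and no class II UMI, and CKO cell 13, with 6 UMIs of the T cell list, 5 of the plasmacytoid dendritic list and none of Ebf1. Without members that held 2 or more UMIs of other types' lists, 4 of 62 CKO members (6.45%) lay under 50. The T cell list includes Il7r, which gave all listed UMIs of CKO cells 6 and 19 and 2 of 3 in cell 23. These cells, low in class II, held 27, 17 and 21 Ebf1 UMIs and 37, 20 and 31 Vpreb3 UMIs. The filter thus also removed cells with B lineage transcripts, and the lower share does not measure other cell types.

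Vpreb3 was high in part of the same cells. It stood at 666 CPM in WT members and 1047 in CKO members, and at 410.2 and 415 in follicular cells, which gave member to follicular ratios of 1.62 (1.23 to 2.11) and 2.52 (2.26 to 2.81). Scaled to 10000 UMIs per cell, the Vpreb3 median was 5.43 in WT and 4.49 in CKO members, and 2.79 and 2.86 in follicular cells. Over the members of no gate it was 8.11 in WT and 4.91 in CKO, so the typical CKO member was not the higher. At least 14 Vpreb3 UMIs, a threshold also chosen after the values were seen, were found in 9 of 73 CKO members (12.3%, 5.80 to 22.1%) and 0 of 17 WT members. This threshold is not scaled for depth and lies above the highest WT member (9 UMIs), which fixed the WT count at 0. The same held for 3 of 3988 CKO and 1 of 1461 WT follicular cells. Of the 12 cells low in class II, 6 had at least 14 Vpreb3 UMIs, and 3 of the 4 cells with Rag1 were among the 12. The CKO to WT ratio of Vpreb3 was 1.57 (1.19 to 2.12) in members and 1.01 in follicular cells, and it was 0.02 on the log2 scale over the members of no gate.

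**Figure D3:**
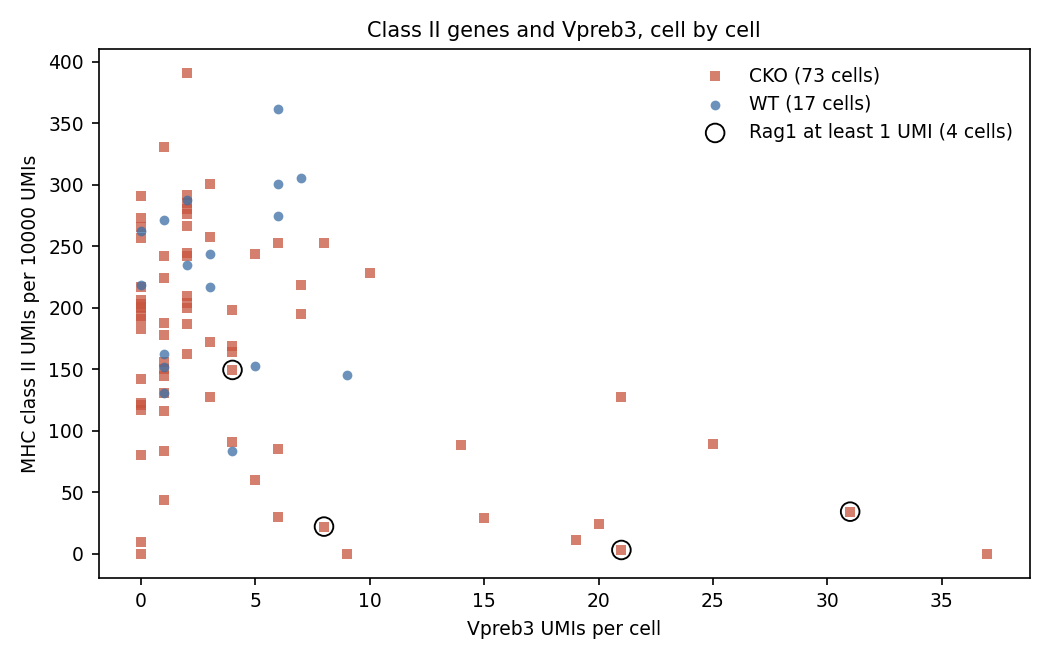
MHC class II UMIs per 10000 UMIs (y axis) against Vpreb3 UMIs (x axis) for each of the 90 members, with the 4 cells that had a Rag1 UMI circled. The cells with at least 14 Vpreb3 UMIs, a threshold above the highest WT member, are all CKO cells. Of those 9, 6 lie under 50 class II UMIs per 10000.

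Innate-like transcripts were found in CKO members. The gate held 6 of 73 CKO members (8.22%, 3.08 to 17%) and 0 of 17 WT members, which allows up to 17.6%. At 2000 UMIs per cell 2 CKO members passed. The 6 cells had 4918 to 14834 UMIs, and 9 CKO members and 1 WT member lay 1 UMI under the threshold. Among the cells just outside the rule it held 1 of 24 in WT (4.17%) and 8 of 128 in CKO (6.25%). The gate held 0.821% and 0.928% of follicular cells, and 47.5% and 45.1% of T cells, which express Cd5. Among the members the gate rested mostly on Zbtb32 and Bhlhe41 and not on Cd5, which had 1 UMI in 1 of the 6 cells. Cd9 gave 3 of the 8 gate UMIs of CKO cell 1 and 3 of the 5 of CKO cell 12. Zbtb32, a repressor expressed in B1 cells, had 12 UMIs in 5 CKO members, 35.9 CPM against 0.417 in follicular cells, and 0 in WT. Bhlhe41 had 19 UMIs in 12 CKO members, 56.8 CPM against 8.45 in follicular cells, and 0 in WT. Against a floor of 3 counts over the WT group that was at least 1.62-fold higher, and without the deepest member of each library the bound came to 0.22 on the log2 scale.

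Other genes listed for B1 cells did not all lie higher in the same library. Several reached the floor of 20 CPM through CKO members alone, so no count over the list is given. Plac8, a small cysteine-rich protein, was found in 59 of 73 CKO members and 7 of 17 WT members (51 and 5 at 2000 UMIs per cell), and in 30.1% and 22.4% of WT and CKO T cells. It stood at 1459.7 CPM in CKO members and 292 in WT members, a ratio of 5.0 (3.35 to 7.80), against 1.13 in follicular cells. Its member to follicular ratio was 3.14 in CKO and 0.713 in WT. S100a6, a calcium-binding protein, had 146 UMIs in 9 CKO members and 0 in WT, and 1 cell held 75.3% of them. In the cells just outside the rule S100a6 was the higher in WT, at 333 CPM against 81.7 in CKO. Anxa2, a membrane-binding annexin, was at 187 CPM in WT members and 35.9 in CKO members, 39.2 and 5.86 times the follicular level. Its WT UMIs, 4, 3, 7 and 2, all lay in cells of the germinal centre gate. In CKO, cell 1 held 6 Anxa2 UMIs, and cell 22, with 131 UMIs of the NK cell list, held 5.

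Ly6d, a surface protein of the B lineage, was found at 3978 CPM in CKO members and 1448 in WT members, a ratio of 2.75 (2.28 to 3.33). It lay above follicular cells in CKO (1.93) and below them in WT (0.761). The WT cells of the germinal centre gate, which are deep, held 0, 0, 0, 0 and 4 Ly6d UMIs. The low WT level is therefore not shown for the other WT members. In WT members of no gate the median per cell was 24.98 Ly6d UMIs per 10000, against 16.95 in WT follicular cells. In CKO the same medians were 30.48 and 18.47, so both libraries lay above follicular cells by this measure. 1 CKO cell held 17.9% of the CKO UMIs. Cd24a, a glycoprotein that declines as B cells mature, had member to follicular ratios of 1.47 (0.954 to 2.16) and 1.87 (1.58 to 2.20).

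Genes of follicular cells and of homing had median ratios below 1 in members of both libraries. Of 10 homing genes 6 in WT and 4 in CKO lay at least 1.5-fold lower, 4 and 3 with an interval below 1, and the medians were -0.96 and -0.31 on the log2 scale. Over all genes 18.3% and 8.46% lay that much lower, and the medians were 0.14 and 0.05. Over the members of no gate the homing medians were -0.38 in WT and -0.20 in CKO. Klf2, a transcription factor of resting lymphocytes, stood at 304 CPM in WT members against 757 in follicular cells (0.401, 0.262 to 0.589). All WT cells of the germinal centre gate, which are deep, had 0 Klf2 UMIs, so this low level is not shown for the other WT members. In CKO the levels were 742 and 755 CPM. Cd55, a surface inhibitor of complement, had ratios of 0.388 in WT and 0.540 in CKO. The follicular list had 0 of 7 genes above 1 in WT, 4 with an interval below 1, with a median of -1.32, and -0.43 over the members of no gate. In CKO 1 of 7 lay above 1 and 3 had an interval below 1, with a median of -0.39. Cd22, an inhibitory receptor of mature B cells, lay at 0.508 and 0.451 of the follicular level.

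**Figure D4:**
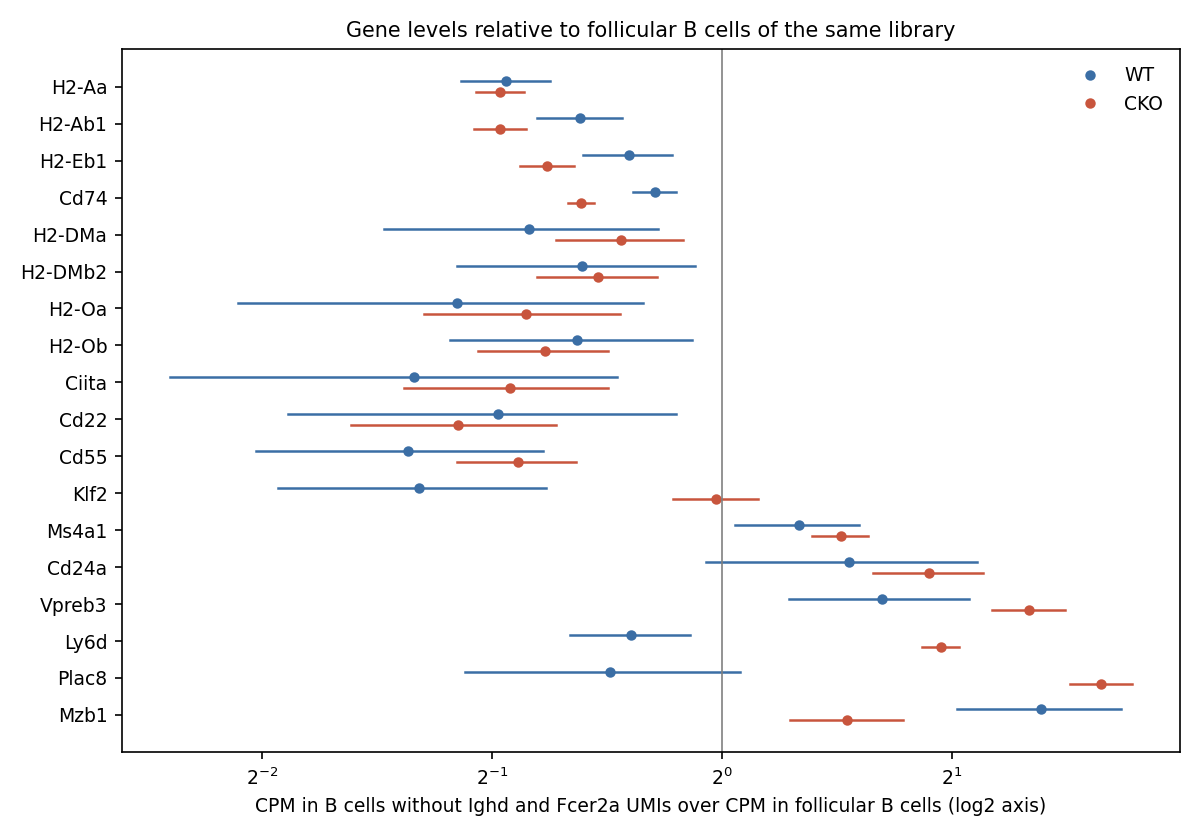
Ratio of CPM in members to CPM in follicular B cells (x axis, log2 axis, 1 as the vertical line) for class II and other listed genes in WT and in CKO, with exact conditional binomial intervals as bars. The 9 class II genes at the top lie left of 1 in both libraries, and Vpreb3 lies right of it in both.

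Interferon-stimulated genes, which cells switch on when they sense virus or interferon, were higher in CKO. Of the 19 measured, all lay higher in CKO members, 16 of them at least 1.5-fold and 12 with an interval above 1, with a median log2 ratio of 1.13. Over all genes measured in members, 21.5% lay that much higher, 6.31% had an interval above 1 and the median was -0.07. In follicular cells the same list was higher for 19 of 19 genes, 10 of them at least 1.5-fold, with a median of 0.62. Of all genes, 0.72% were that much higher in CKO follicular cells and 0.343% that much lower. Whether members and follicular cells differed in this ratio was not tested. Over the members of no gate the median was 0.77.

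Single interferon genes gave the following values. Ifit3, an antiviral protein, had 8 UMIs in WT and 140 in CKO members, 93.4 and 419 CPM, a ratio of 4.48 (2.21 to 10.6) against 1.53 in follicular cells. Bst2, which tethers budding virus, had 12 and 165 UMIs, a ratio of 3.52 (1.96 to 6.95) against 1.68. Ifi27l2a, at 1647 and 2707 CPM, had a ratio of 1.64 (1.38 to 1.98). Those 3 genes were all higher in CKO by more than counting error. Oasl2, with 4 and 16 UMIs, had a ratio of 1.02 (0.331 to 4.21), an interval that spans 1. Per cell, interferon UMIs per 10000 had a median of 23.9 in WT and 42.1 in CKO members, and 19.0 and 30.6 in follicular cells. Ddx58, the RNA sensor RIG-I, is not on the list and was named for its high CKO to WT ratio. It had 1 UMI in WT members and 53 in 39 CKO members, a ratio of 13.6 (2.33 to 546) against 1.35 in follicular cells. The WT members lay low, at 11.7 CPM against 97.0 in WT follicular cells. CKO members, at 159 CPM, were near CKO follicular cells at 131, a ratio of 1.21 (0.903 to 1.59).

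**Figure D5:**
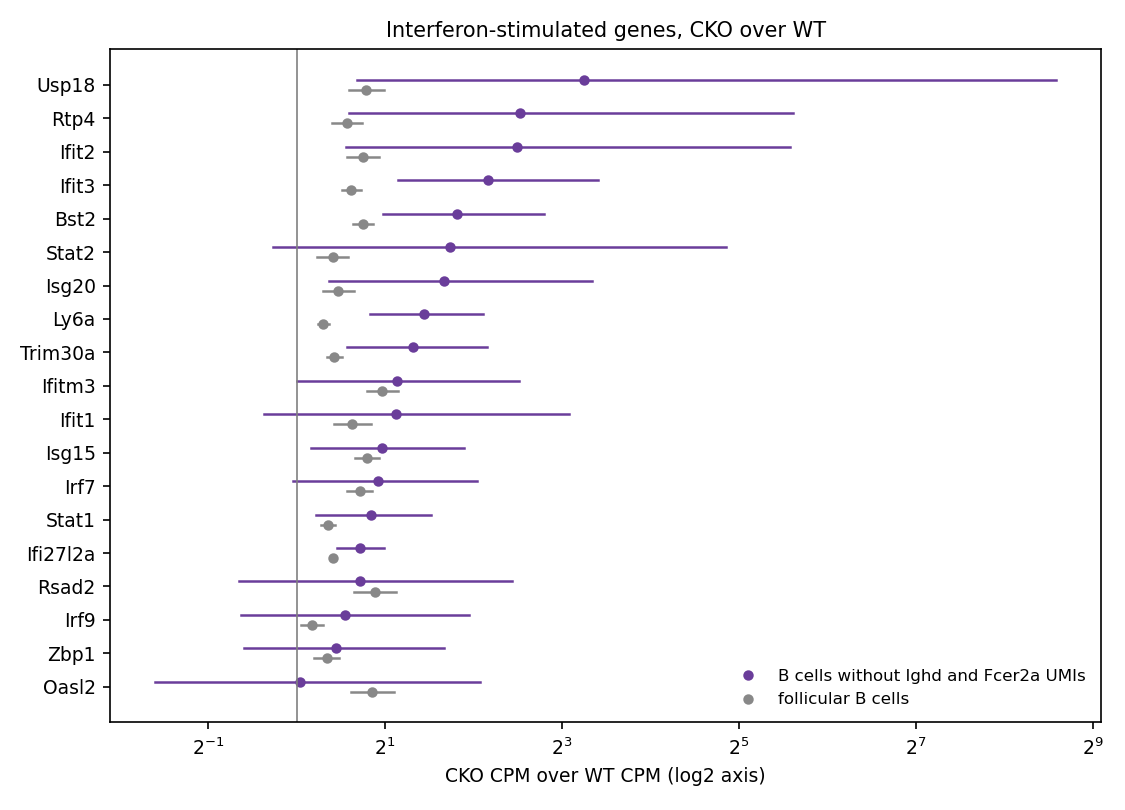
Ratio of CKO to WT CPM (x axis, log2 axis, 1 as the vertical line) of the interferon-stimulated genes in members and in follicular B cells, with exact conditional binomial intervals as bars. All 19 genes measured in members lie right of 1, and the bars of the members are the wider.

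Among the genes with the highest CKO to WT ratios in members, several rested on few cells. Hist1h2ae, a replication histone, had 66 UMIs in CKO members, 90.9% of them in 1 cell, and at 2000 UMIs per cell its log2 ratio was -0.65, in the other direction. Histone genes have near-identical copies, so their counts are uncertain. Tyrobp, a signalling adaptor of NK and myeloid cells, had 51.2% of its CKO UMIs in 1 cell. Ccnd2, a cyclin that drives entry into the cell cycle, had 2 and 68 UMIs, a ratio of 8.71 (2.32 to 73.4). Among the lowest ratios, Nuggc, a nuclear GTPase of germinal centre cells, had 10 UMIs in WT and 0 in CKO members. Il4i1, an amino acid oxidase, had 10 and 3 UMIs.

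Cycling transcripts came from few cells. At least 5 UMIs of the cycling list were found in 4 of 17 WT and 3 of 73 CKO members. The deepest WT cell, which passed the germinal centre gate, held 147 of them, 104 from Hmgb2. CKO cell 6 held 231 and CKO cell 19 held 45. Both had many Vpreb3 UMIs (37 and 20), and cell 6 had no class II UMI. Genes of dividing cells were also the highest in members over follicular cells in both libraries, among them Ube2c, Birc5, Mki67 and Pclaf. Of the Mki67 UMIs, 1 cell held 71.4% in WT and 1 cell held 87.5% in CKO.

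Of 3737 genes compared with follicular cells, 27.3% in WT and 11% in CKO passed 1.5-fold upward in members. In both libraries at once 5.16% passed upward and 3.21% downward. Beside the genes of division, Akap12, an anchor of protein kinase A, had ratios of 8.48 in WT and 5.33 in CKO, on 16 and 42 UMIs. Among the lowest, Zfp318, which is needed for splicing of the long transcript that gives IgD, had ratios of 0.302 (0.138 to 0.574) and 0.381 (0.274 to 0.515). Satb1, a chromatin organizer of lymphocytes, lay at 0.190 and 0.366, and Icosl, the ligand of the T cell receptor ICOS, at 0.308 and 0.324. Lack of Ighd chose the members, so the Zfp318 value is not independent of the rule.

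Early response and homing genes were mostly higher in CKO members. Over all 3611 genes measured in members, 21.5% lay at least 1.5-fold higher in CKO and 25.1% that much lower. The interval lay above 1 for 6.31% and below 1 for 8.72%, and the median log2 ratio was -0.07. Of 10 activation genes 7 were at least 1.5-fold higher, 4 with an interval above 1, and 2 were that much lower, 1 with an interval below 1. Their median was 0.78, against 0.21 in follicular cells. Of 10 homing genes 6 were at least 1.5-fold higher, 4 with an interval above 1, and 1 was that much lower, with its interval below 1. Their median was 1.05 in members and -0.00478 in follicular cells, where 4 of 10 lay above 1. Against follicular cells, the homing medians over all members were -0.96 in WT and -0.31 in CKO. Over the members of no gate they were -0.38 and -0.20. The activation medians were -0.47 and 0.42 over all members, and 0.16 and 0.56 over those of no gate. How far the gated WT cells set the CKO to WT ratios was not tested. Fos, an immediate early transcription factor, had 5 UMIs in WT and 89 in CKO, a ratio of 4.56 (1.88 to 14.4). Cd69, which holds lymphocytes in tissue, had 19 and 185 UMIs, a ratio of 2.49 (1.55 to 4.24) against 1.10 in follicular cells. Cxcr4, a chemokine receptor of dark zone and bone marrow B cells, went the other way at 0.256 (0.117 to 0.562). Genes of B cell receptor signalling showed little of this: 4 of 10 lay higher and 6 lower in CKO members, none with an interval clear of 1, and their median was -0.13.

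A minority of members carried UMIs of genes listed for other cell types. At least 2 UMIs over the T cell, NK cell, myeloid and dendritic cell lists were found in 1 of 17 WT and 11 of 73 CKO members. The T cell list includes Il7r, and CKO cells 6 and 19 counted through Il7r alone, with 5 and 3 UMIs. They held 27 and 17 UMIs of Ebf1, so a listed UMI does not mark a cell as another type. CKO cell 22 held 131 UMIs of the NK list, 91 of them Gzma, a cytotoxic granule protease, with 2 Cd79a UMIs and none of Ighm. CKO cell 7 held 30 UMIs of the plasmacytoid dendritic cell list, 238 of Ly6d and 64 of class II genes. Without these 2 cells the class II median in CKO was -0.73. The part of other cell types or doublets in the remaining values was not tested.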

How the data were processed

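Single-cell RNA counts were deposited as whole-number UMI counts per gene and barcode, 1 matrix per library. Per the file headers they came from Cell Ranger 6.0.2, whereas the submitters' processing notes name Cell Ranger 5.0.0, Seurat 4.0.3 and mm10, so the version behind the counts is uncertain. Gene positions were taken from GENCODE M21, which held 32158 of 32285 gene IDs.

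The members and lists were chosen with earlier results of these data known. Counts were summed over cells and divided by the group's total. Genes entered a comparison at 50 CPM in a library, and list genes at a mean of 20 CPM. Shares carry exact binomial intervals, levels exact Poisson, ratios exact conditional binomial and share differences Newcombe intervals, all at 95%. UMIs from 1 library are not independent animals. Cells were thinned to 2000 UMIs without replacement. Named genes were the 12 highest and 12 lowest CKO to WT ratios with an interval clear of 1, the 15 highest and 10 lowest against follicular cells by the less extreme library, and the lists. Immunoglobulin segments, mitochondrial, sex-linked and predicted genes, and genes 10 times as high in T or in plasma cells in both libraries, were left out. Doublets were scored with Scrublet in Scanpy 1.11.5 at a doublet rate that grew with the barcode count and kept. Alternatives covered doublets, depth, mitochondrial and Cd79a limits, other cell types' UMIs, thinning, scaling, gate thresholds and floors. The counting code was tested on simulated data. Some genes of the lists and gates are not reported here by name.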

Additional observations from a re-analysis of the deposited data

How the results depend on the processing

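In the alternatives run on shares, gene counts and list medians, 83 values stayed within the limits set and 22 moved. The balance of genes higher and lower in CKO turned over when thinned, with no floor and under median-of-ratios scaling (894 and 789), and the CKO minus WT share of members was -0.867 points between 2000 and 3000 UMIs and -1.41 points from 6000 UMIs, against 0.518 over all. In cells with at least 4000 UMIs the germinal centre difference was -83.3 points and the switched difference -47.1 points. Only 6 WT and 35 CKO members were left there, and the 6 included all 5 WT cells of the germinal centre gate. The germinal centre difference was -2.82 points when the rule was applied to thinned cells. Genes at least 1.5-fold higher and lower in CKO numbered 778 and 905, against 507 and 423 thinned, 1479 and 1522 at a floor of 20 CPM, and 1573 and 1507 with no floor. The interferon median was 1.36 without cells with 2 or more UMIs of other types' lists, 0.86 thinned and 0.77 in members of no gate. The WT class II median was -0.83 at 4000 UMIs, -0.84 at a mitochondrial limit of 5%, -0.38 thinned and -0.48 in members of no gate. The CKO class II median was -0.73 without high Scrublet scores, -0.70 at 4 or more Cd79a UMIs and -0.51 thinned. It was -0.53 without cells with 2 or more UMIs of other types' lists, which count Il7r as a T cell gene. In members of no gate it was -0.72, and without the 2 cells led by another type it was -0.73. Among named genes, 4 values reversed: Ms4a1 at 4000 UMIs (-0.19 on the log2 scale), Hist1h2ae thinned (-0.65), Slc15a2 thinned (0.20) and Ighm in members of no gate (-0.0537). The cause was not tested. Members of no gate, removal of cells led by another type and removal of each library's deepest cell were alternatives chosen after seeing the data.

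No paired analysis was possible because each genotype has 1 library and the labels carry no replicate numbers. Imposing the WT gate make-up on CKO was not run, since the germinal centre gate was empty in CKO and the immature and innate-like gates were empty in WT. The 17 WT members limit every comparison of genotypes: a share of 0 there allows up to 17.6%.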
